A study of Bos taurus with 6 samples.

Results

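The constitutive proteasome genes were examined in RNA-seq libraries of ACADSB-/- and wild-type (WT) bovine mammary epithelial cells (bMECs). They were taken as every gene of the count table whose symbol is PSMA, PSMB, PSMC, PSMD, PSME, PSMF or PSMG followed by a number, without the 5 interferon-inducible subunits PSMB8, PSMB9, PSMB10, PSME1 and PSME2. This gave 42 of 15693 genes, of which 41 had enough counts to be tested among 13720 tested genes. The study asked what the loss of ACADSB, a mitochondrial enzyme of branched-chain and short-chain acyl-CoA oxidation, does to the transcriptome of these cells. Both groups came from the mammary tissue of a healthy Chinese Holstein dairy cow in lactation, and both were grown in DMEM/F12 with foetal bovine serum, hydrocortisone and insulin. The 3 ACADSB-/- libraries came from cells transfected transiently with the PX458 plasmid, which carries Cas9, green fluorescent protein and a guide against ACADSB, and, by the study's methods, grown up from a single sorted fluorescent cell. The series' design text instead speaks of 3 knockout lines and the library protocol of pooled RNA, so that it is not settled whether the 3 libraries share 1 clone. The 3 WT libraries came from the control cells, for which no such cloning step is described, so that the effect of the edit and the history of the sorted cells cannot be told apart.

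The proteasome is the large protease of the cytosol and nucleus that degrades proteins marked with ubiquitin chains. Its core particle is a barrel of alpha and beta rings with the proteolytic sites inside, and its regulatory particle is a cap made of a base, whose ATPase ring unfolds substrates, and a lid, which removes the ubiquitin. Dedicated chaperones assemble core and base, and other activators can take the place of the cap. In mammals the subunit genes are known for a shared transcriptional response when proteasome activity is limiting, and interferon exchanges the catalytic beta subunits for inducible forms. Dairy mammary epithelium makes and secretes large amounts of protein, and the proteasome is part of its protein quality control.

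The libraries held 30550275 to 34983965 counts. The targeted gene ACADSB, at 9, 7 and 15 counts in the ACADSB-/- libraries, against 38, 34 and 20 counts in the WT libraries, was lower in ACADSB-/- cells (log2 fold change -1.60, SE 0.46, adjusted p = 0.00357). All 8 mammary epithelial markers examined, the keratins KRT5, KRT8, KRT14, KRT17, KRT18 and KRT19 with EPCAM and CDH1, were above 1 FPKM (fragments scaled by gene model length and library total, as deposited) in every library, and the 4 milk protein genes, CSN1S1, CSN2, CSN3 and LALBA, were at or near 0. Summed over the 8 epithelial markers, FPKM was 5189 to 5583 in ACADSB-/- cells and 5899 to 6100 in WT cells, but single markers went opposite ways. KRT17 was at 8.01 to 8.95 FPKM in ACADSB-/- cells and 62.3 to 68.1 FPKM in WT cells, and KRT8, KRT14 and KRT18 also lay lower in ACADSB-/- cells. EPCAM was at 111 to 125 FPKM in ACADSB-/- cells and 66.6 to 80.0 FPKM in WT cells, and CDH1 and KRT5 also lay higher in ACADSB-/- cells. Of 5 fibroblast markers only DCN was above 1 FPKM, and the summed level of the 5 was 595 to 622 FPKM in ACADSB-/- cells and 496 to 534 FPKM in WT cells. The 4 immune, 3 endothelial and 3 adipocyte markers summed to at most 3.12 FPKM each in any library. The part of these marker levels in the proteasome results was not tested, and in bulk RNA fewer cells of a type and less RNA per cell cannot be told apart.

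More proteasome genes were lower than higher in ACADSB-/- cells, by small amounts, and fewer of them passed once gene length was taken into account. Of the 41 tested genes, 4 were higher, 25 fell and 12 were not called (edgeR quasi-likelihood test, Benjamini-Hochberg adjusted p under 0.05 over all tested genes). The lower share was 61.0% of the members, beside 28.6% of all tested genes, and the higher share was 9.76%, beside 29.7%. In either direction 70.7% of the members passed, beside 58.2% of all tested genes. The median log2 fold change was -0.18 over the members and 0.0049 over all tested genes. With a smooth trend on gene length removed in each library, an alternative chosen after seeing the data, 17 members (41.5%) were lower, beside 30.4% of all tested genes, and 4 (9.76%) were higher, beside 27.2%. The median was then -0.093 over the members and -0.02 over all tested genes. In a test for a change beyond 1.2-fold, also added after seeing the data, 6 members (14.6%) were lower, beside 14.6% of all tested genes, and 2 (4.88%) were higher, beside 18.4%. The 25 lower genes fell by 7.86% to 37.0%, and the 4 higher genes, PSMA4, PSMD12, PSMD14 and PSME4, rose by 10.0% to 36.6%. No member reached 2-fold, beside 10.2% of all tested genes that passed at that size, and the largest absolute log2 fold change of a member was 0.71 over every setting tried, edgeR, DESeq2 and limma included. At an unadjusted p under 0.05, 30 members passed and 0 of them were at 2-fold. The share of all tested genes at that threshold was not counted, so that the 30 cannot be set against it. For 27 of the 41 genes (65.9%) the CPM values (counts scaled by the TMM-adjusted library total) of the groups did not overlap, beside 63.6% of all tested genes. Counts of the tested members ran from 918 to 18384 per library, and the standard errors of their log2 fold changes were 0.047 to 0.095. The median standard error was 0.054 over the members and 0.092 over all tested genes, so that smaller changes could pass among the members. The median absolute log2 fold change was 0.20 over the members, below the 0.31 over all tested genes. Whether the libraries of a group were independent cultures is not stated, and the p-values therefore reflect the scatter among these 6 libraries alone, which may be technical.

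**Figure D1:**
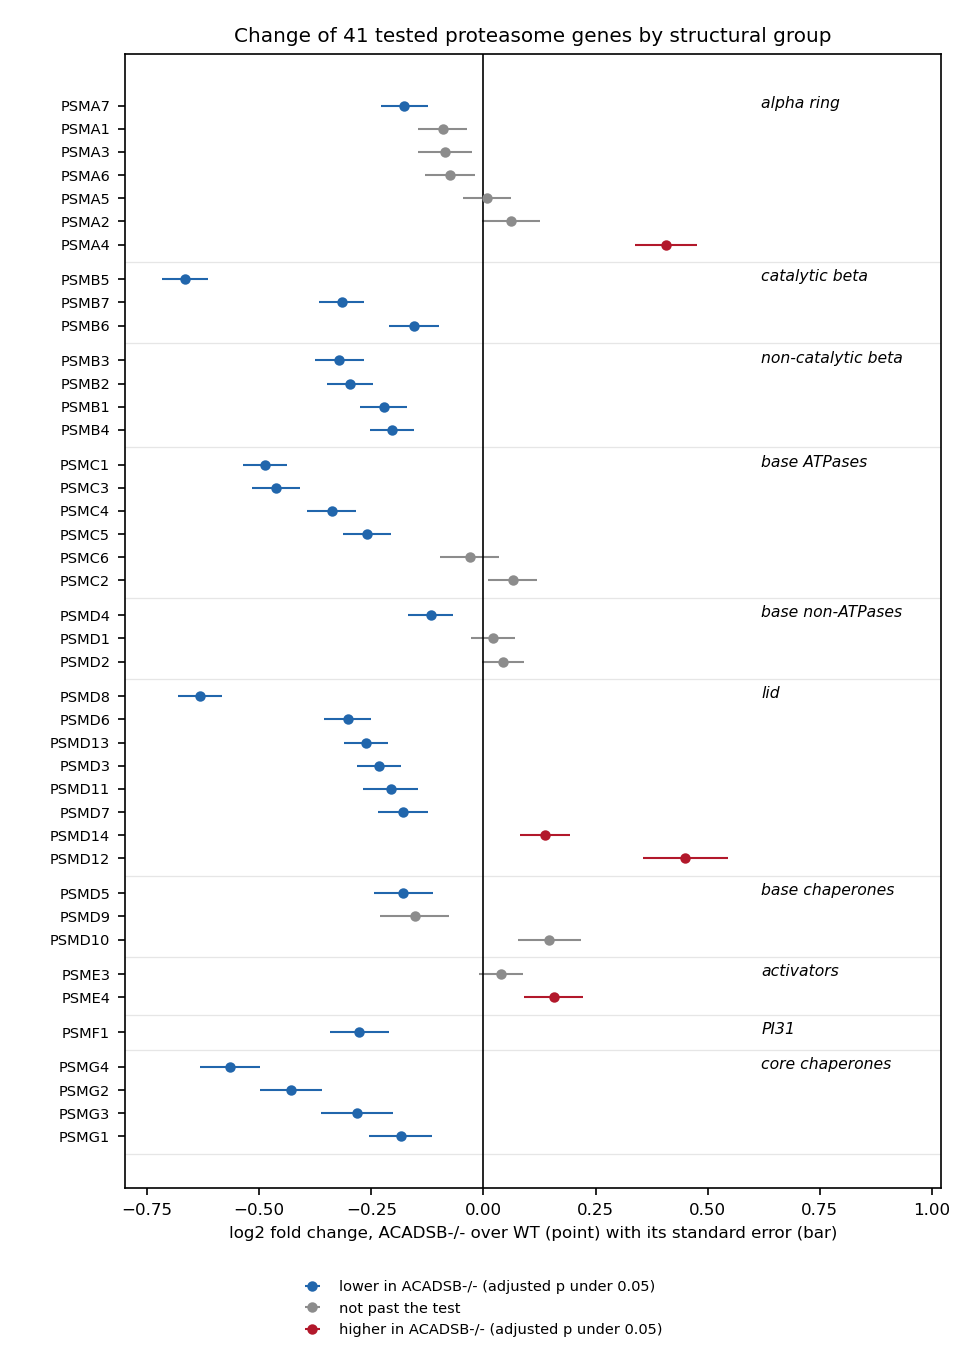
Log2 fold change of ACADSB-/- over WT (x axis, points, with standard errors as bars) for the 41 tested proteasome genes, sorted within structural groups and coloured by the outcome of the edgeR test. All tested beta subunits and the core chaperones PSMG1 to PSMG4 lie to the left of 0, and PSMA4 (0.41) and PSMD12 (0.45) stand apart on the right.

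The catalytic beta subunits, which carry the proteolytic sites, were all lower in ACADSB-/- cells, beside 28.6% of all tested genes. Among the tested members, the chymotrypsin-like subunit PSMB5 had the largest decrease, close to that of PSMD8 (log2 fold change -0.63, SE 0.049). PSMB5 (chromosome 10, 21699915 to 21705434, plus strand, in the coordinates of the deposited tables, for which no genome build is given in the sources used here) had 185, 199 and 175 CPM in the ACADSB-/- libraries, against 305, 285 and 296 CPM in the WT libraries. Its groups were far apart, with the highest ACADSB-/- library well below the lowest WT library. PSMB5 fell by 37.0% (log2 fold change -0.67, SE 0.052, adjusted p = 3.21e-12). The trypsin-like subunit PSMB7 (chromosome 11, 95658415 to 95715657, minus strand) had 140, 143 and 135 CPM in the ACADSB-/- libraries, against 172, 170 and 179 CPM in the WT libraries. Again the groups did not overlap, and PSMB7 fell by 19.7% (log2 fold change -0.32, SE 0.051, adjusted p = 3.79e-06). With the length trend removed, PSMB7 kept its call at a smaller size (-0.20, adjusted p = 0.000739). The caspase-like subunit PSMB6 (chromosome 19, 27339714 to 27341927, minus strand) had 107, 104 and 96.6 CPM in the ACADSB-/- libraries, against 119, 110 and 113 CPM in the WT libraries. These groups lay close together, with only a small gap between ACADSB-/- replicate 1 and WT replicate 2, and PSMB6 fell by 10.2% (log2 fold change -0.16, SE 0.056, adjusted p = 0.0177). The PSMB6 call did not hold without ACADSB-/- replicate 3 (adjusted p = 0.106) or without WT replicate 1 (adjusted p = 0.0872), nor with the length trend removed (-0.017, adjusted p = 0.802). Summed over the 3 genes, the catalytic subunits held 428 ± 20.3 CPM in ACADSB-/- cells and 583 ± 16.3 CPM in WT cells (SD, n = 3 each), a ratio of 0.734. The thymus form of the catalytic subunit, PSMB11, lies 4370 bases from PSMB5 on the opposite strand (chromosome 10, 21694371 to 21695544, minus strand) and was the one member left out by the low-count filter. It had 9, 4 and 5 counts in the ACADSB-/- libraries, against 5, 19 and 27 counts in the WT libraries, and the groups overlapped.

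The 4 non-catalytic beta subunits, which complete the beta rings, were lower as well, by similar amounts, beside 28.6% of all tested genes that were lower. PSMB3 (chromosome 19, 40155509 to 40164980, plus strand) had 136, 146 and 128 CPM in the ACADSB-/- libraries, against 173, 175 and 165 CPM in the WT libraries. The groups were separate, and PSMB3 fell by 20.0% (log2 fold change -0.32, SE 0.054, adjusted p = 8.16e-06). PSMB2 (log2 fold change -0.30, adjusted p = 1.11e-05), PSMB1 (-0.22, adjusted p = 0.000679) and PSMB4 (-0.20, adjusted p = 0.000723) were also lower with no overlap between groups. With the length trend removed, PSMB1 (-0.093, adjusted p = 0.131) and PSMB4 (-0.085, adjusted p = 0.124) lost their calls. PSMB3 (-0.18, adjusted p = 0.00322) and PSMB2 (-0.16, adjusted p = 0.00784) kept theirs, at smaller sizes. Without that correction the spread among the 4 genes was narrow, since their log2 fold changes lay between -0.32 and -0.20. In sum the non-catalytic beta subunits held 570 ± 20.2 CPM in ACADSB-/- cells and 681 ± 6.05 CPM in WT cells (SD, n = 3 each), a ratio of 0.837.

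Of the 7 genes of the alpha ring, which gates the entry to the core, 1 was higher, 1 was lower and 5 did not pass the test. This was 14.3% in each direction, beside 29.7% of all tested genes that were higher and 28.6% that were lower. PSMA4 (chromosome 21, 31557019 to 31564853, plus strand) had 82.9, 88.0 and 84.6 CPM in the ACADSB-/- libraries, against 56.2, 71.3 and 65.2 CPM in the WT libraries. All ACADSB-/- libraries were above all WT libraries, the WT libraries were the more spread, and WT replicate 1 was the lowest. PSMA4 rose by 32.6% (log2 fold change 0.41, SE 0.069, adjusted p = 1.38e-05). PSMA7, the most abundant alpha subunit per length, fell by 11.5% (log2 fold change -0.18, SE 0.052, adjusted p = 0.00439), with the ACADSB-/- libraries below the WT libraries, a call that was lost with the length trend removed (-0.062, adjusted p = 0.287). PSMA1, PSMA2, PSMA3, PSMA5 and PSMA6 had log2 fold changes of -0.091, 0.062, -0.085, 0.0073 and -0.074, with adjusted p-values of 0.158 to 0.916. The median of the alpha ring was -0.074, beside -0.32 for the catalytic and -0.26 for the non-catalytic beta subunits, and the difference between these groups of genes was not tested. Summed, the alpha ring held 785 ± 28.7 CPM in ACADSB-/- cells and 804 ± 19.03 CPM in WT cells (SD, n = 3 each), a ratio of 0.977.

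Of the 6 ATPases of the base, which form the ring that unfolds substrates and feeds them into the core, 4 fell and the other 2 were not called. The lower share was 66.7%, beside 28.6% of all tested genes. PSMC1 (chromosome 10, 103258848 to 103271447, plus strand) had 158, 159 and 153 CPM in the ACADSB-/- libraries, against 223, 217 and 219 CPM in the WT libraries. The libraries within each group were within a few CPM of each other, and the groups were far apart. PSMC1 fell by 28.7% (log2 fold change -0.49, SE 0.048, adjusted p = 6.24e-10). PSMC3 (chromosome 15, 78831352 to 78837464, minus strand) had 212, 219 and 186 CPM in the ACADSB-/- libraries, against 286, 278 and 287 CPM in the WT libraries. ACADSB-/- replicate 3 was the lowest, and every ACADSB-/- library was below every WT library. PSMC3 fell by 27.5% (log2 fold change -0.46, SE 0.054, adjusted p = 1.4e-08). PSMC4 (chromosome 18, 49855316 to 49866174, plus strand) had 96.9, 104 and 98.6 CPM in the ACADSB-/- libraries, against 133, 124 and 122 CPM in the WT libraries. The groups did not overlap, and PSMC4 fell by 20.9% (log2 fold change -0.34, SE 0.054, adjusted p = 3.96e-06). PSMC5 was lower too (log2 fold change -0.26, SE 0.053, adjusted p = 0.000101). PSMC2 and PSMC6 had log2 fold changes of 0.065 (adjusted p = 0.312) and -0.031 (adjusted p = 0.71), and their groups overlapped. Although the ring holds 1 copy of each ATPase, the log2 fold changes of the 6 genes ran from -0.49 to 0.065.

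Of the 3 members that are base subunits but not ATPases, 1 was lower (33.3%, beside 28.6% of all tested genes) and the other 2 did not pass the test. ADRM1, a base ubiquitin receptor outside the member rule, was lower with separate groups (log2 fold change -0.23, SE 0.052, adjusted p = 0.000356). PSMD1 and PSMD2, the large scaffolds that hold ubiquitin receptors and shuttle factors, had log2 fold changes of 0.021 (SE 0.048, adjusted p = 0.727) and 0.044 (SE 0.047, adjusted p = 0.432), with overlapping groups. The ubiquitin receptor PSMD4 was lower by a small amount (log2 fold change -0.12, SE 0.05, adjusted p = 0.0429), and this call was lost without ACADSB-/- replicate 1 (adjusted p = 0.0839), without ACADSB-/- replicate 3 (adjusted p = 0.191) and without WT replicate 1 (adjusted p = 0.135), and with the length trend removed (-0.061, adjusted p = 0.287). Summed, the 3 members PSMD1, PSMD2 and PSMD4 held 972 ± 27.0 CPM in ACADSB-/- cells and 970 ± 14.0 CPM in WT cells (SD, n = 3 each), a ratio of 1.00.

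All 8 lid genes among the members passed the test, 6 as lower and 2 as higher, with PSMD8 and PSMD12 at the ends of their range. Of all tested genes 58.2% passed, 28.6% as lower and 29.7% as higher. The lid subunit SHFM1 has a symbol outside the member rule and is counted below among the partners. It did not pass (log2 fold change 0.54, SE 0.25, adjusted p = 0.117), and its groups overlapped. PSMD8 (chromosome 18, 48622956 to 48628946, plus strand), a lid subunit known from yeast to join last in lid assembly, had 329, 342 and 306 CPM in the ACADSB-/- libraries, against 504, 495 and 516 CPM in the WT libraries. No ACADSB-/- library came near the WT range. PSMD8 fell by 35.5% (log2 fold change -0.63, SE 0.049, adjusted p = 2.58e-12). PSMD12 (chromosome 19, 50320392 to 50340764, plus strand), one of the structural subunits of the lid horseshoe, had 97.6, 101 and 99.4 CPM in the ACADSB-/- libraries, against 59.6, 82.6 and 75.9 CPM in the WT libraries. The ACADSB-/- libraries were close together and above all WT libraries, while WT replicate 1 lay well below the other WT libraries. PSMD12 rose by 36.6% (log2 fold change 0.45, SE 0.095, adjusted p = 0.00142). The other structural subunits PSMD3, PSMD6, PSMD11 and PSMD13 were lower, with log2 fold changes of -0.23, -0.30, -0.21 and -0.26 and adjusted p-values of 1.36e-05 to 0.00446. The deubiquitinase of the lid, PSMD14, and its non-catalytic partner PSMD7 differed in sign. PSMD7 was lower (log2 fold change -0.18, SE 0.056, adjusted p = 0.00679), and its groups did not overlap, but the call was lost with the length trend removed (-0.10, adjusted p = 0.117). PSMD14 was higher (log2 fold change 0.14, SE 0.056, adjusted p = 0.0344), but its groups overlapped and the call was lost without ACADSB-/- replicate 1 or 2 or WT replicate 1 or 3 (adjusted p = 0.091, 0.0988, 0.0914 and 0.24).

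Of the chaperones that assemble the core, the 4 members PSMG1 to PSMG4 were all lower, beside 28.6% of all tested genes. POMP, a core assembly chaperone outside the member rule, was not called (log2 fold change 0.12, SE 0.055, adjusted p = 0.0628). The ACADSB-/- libraries of POMP all lay above its WT libraries. PSMG4 (chromosome 23, 50469320 to 50473606, minus strand) had 45.5, 46.0 and 44.7 CPM in the ACADSB-/- libraries, against 73.7, 65.8 and 62.0 CPM in the WT libraries. The ACADSB-/- libraries were nearly equal, and all WT libraries were higher. PSMG4 fell by 32.4% (log2 fold change -0.57, SE 0.068, adjusted p = 2.67e-08), and its log2 fold change ran from -0.63 to -0.39 over the settings tried. PSMG2 (chromosome 24, 43651584 to 43661530, plus strand), the partner of PSMG1 in a dimer that guides the alpha ring, had 35.3, 34.7 and 35.6 CPM in the ACADSB-/- libraries, against 44.9, 48.4 and 48.9 CPM in the WT libraries. The groups were separate, and PSMG2 fell by 25.7% (log2 fold change -0.43, SE 0.07, adjusted p = 4.91e-06). PSMG3, the partner of PSMG4, was lower (log2 fold change -0.28, SE 0.08, adjusted p = 0.00331), though not with the length trend removed (-0.14, adjusted p = 0.121). PSMG1 was lower (log2 fold change -0.18, SE 0.071, adjusted p = 0.026) with overlapping groups, and its call was lost without ACADSB-/- replicate 1 or 3 or WT replicate 3 (adjusted p = 0.106, 0.0618 and 0.185), and with the length trend removed (-0.085, adjusted p = 0.3). In sum PSMG1 to PSMG4 held 164 ± 3.06 CPM in ACADSB-/- cells and 212 ± 0.904 CPM in WT cells (SD, n = 3 each), a ratio of 0.774.

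The 3 base chaperones among the members gave a mixed picture. PAAF1, a base chaperone outside the member rule, was not called (log2 fold change -0.17, adjusted p = 0.0892). The ACADSB-/- libraries of PAAF1 all lay below its WT libraries. PSMD5 was lower (log2 fold change -0.18, SE 0.066, adjusted p = 0.0205), a call that was lost without ACADSB-/- replicate 3 (adjusted p = 0.0838) or WT replicate 3 (adjusted p = 0.108). PSMD9 had a log2 fold change of -0.15 (adjusted p = 0.0895) and passed as lower only without ACADSB-/- replicate 2 (adjusted p = 0.0204). PSMD10, also known as gankyrin, had a log2 fold change of 0.15 (adjusted p = 0.0744) and passed as higher without WT replicate 2 (adjusted p = 0.00754), with library totals alone (adjusted p = 0.0361) and with limma on log2(FPKM + 1) (adjusted p = 0.0336).

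Of the caps that bind the core in place of the regulatory particle, the nuclear activator PSME3 had a log2 fold change of 0.039 (adjusted p = 0.516). PSME4, a large activator known in mice for histone degradation, was higher (log2 fold change 0.16, SE 0.066, adjusted p = 0.0428), with overlapping groups. The PSME4 call was lost without ACADSB-/- replicate 3 (adjusted p = 0.248), WT replicate 1 (adjusted p = 0.125) or WT replicate 3 (adjusted p = 0.194), and with the length trend removed the sign turned (-0.018, adjusted p = 0.824). PSMF1, a core-binding protein that inhibits the core in vitro, fell by 17.5% (log2 fold change -0.28, SE 0.066, adjusted p = 0.000625).

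**Figure D2:**
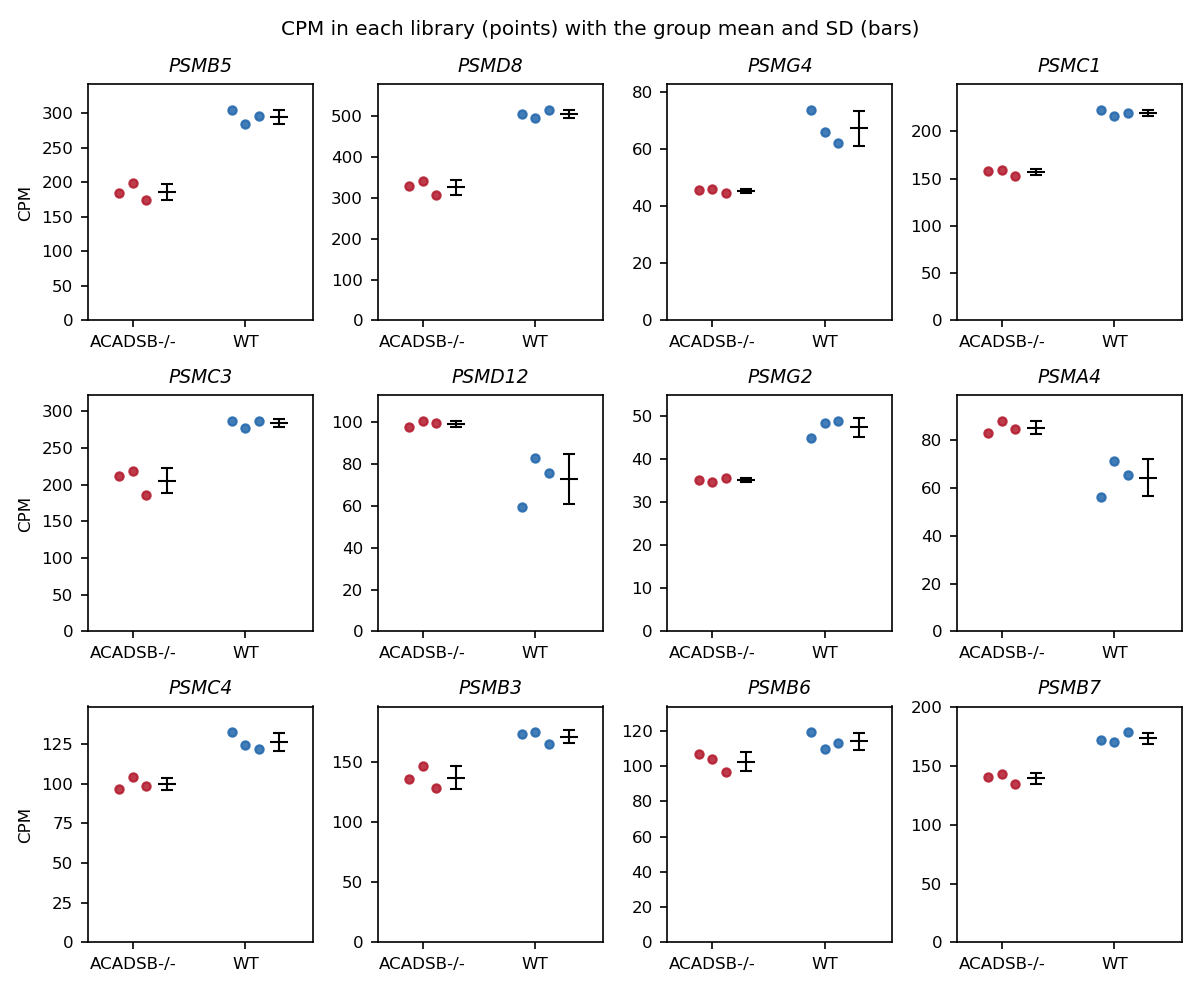
CPM of 12 proteasome genes in each library (points, ACADSB-/- left and WT right) with the group mean and SD (bars, n = 3). In every panel the groups are separate, and ACADSB-/- lies above WT only for PSMD12 and PSMA4. All but PSMB6 and PSMB7 were chosen in part because their groups did not overlap, so that this separation was fixed by the choice. Of all tested genes, 63.6% were without overlap.

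Per length, the proteasome genes spanned a wide range of levels, and their order was much alike in both groups. PSMD8 had the highest level, at 279 ± 13.0 FPKM in ACADSB-/- cells and 422 ± 4.72 FPKM in WT cells (SD, n = 3 each). PSMB4 followed at 235 ± 6.68 FPKM in ACADSB-/- cells and 265 ± 7.70 FPKM in WT cells, and PSMA7 at 230 ± 13.0 FPKM in ACADSB-/- cells and 254 ± 8.62 FPKM in WT cells. The ranges of PSMB4 and PSMA7 overlapped in both groups. At the other end, PSME4 had 10.1 ± 0.812 FPKM in ACADSB-/- cells and 8.82 ± 0.698 FPKM in WT cells, and PSMB11 had 0.156 ± 0.0562 FPKM in ACADSB-/- cells and 0.461 ± 0.304 FPKM in WT cells. Of the 41 neighbouring pairs in the order of mean FPKM, 24 overlapped in ACADSB-/- cells and 29 in WT cells, so that neighbours mostly did not differ beyond their spread. Apart from PSMB11, all 41 members were above the median of all genes of the count table, which was 7.24 FPKM in ACADSB-/- cells and 6.61 FPKM in WT cells. Over the 42 genes, the log2 mean FPKM of the groups correlated with r = 0.982 and rho = 0.964, as a description over genes that share their libraries.

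The range of levels among the 17 base and lid members was narrower in ACADSB-/- cells, mainly through PSMD8. SHFM1 and ADRM1, which lie outside the member rule, were left out of this range. Among the 17 members, the highest FPKM was 5.76, 6.64 and 5.78 times the lowest in the ACADSB-/- libraries, against 12.8, 9.07 and 10.3 times in the WT libraries. The groups did not overlap, and PSMD8 was the highest by mean FPKM in both, while the lowest was PSMD11 in ACADSB-/- cells and PSMD12 in WT cells. The coefficient of variation over these 17 genes was 55.3%, 57.3% and 52.7% in the ACADSB-/- libraries, against 73.5%, 69.7% and 74.97% in the WT libraries. Without PSMD8 the groups overlapped, with 40.2%, 41.7% and 38.5% over 16 genes in the ACADSB-/- libraries, against 45.5%, 39.8% and 43.5% in the WT libraries. Among the 14 core subunits it was 43.0%, 42.5% and 39.4% in the ACADSB-/- libraries, against 49.3%, 44.7% and 48.2% in the WT libraries. These core values did not overlap between groups either. The ratio of the highest to the lowest core subunit overlapped between groups, at 4.73, 4.51 and 3.96 in the ACADSB-/- libraries, against 5.50, 4.65 and 5.87 in the WT libraries. These measures were chosen after the values were seen and were not tested.

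Summed over all 42 genes, the members held 5300, 5459 and 5178 CPM in the ACADSB-/- libraries, against 6095, 6089 and 6062 CPM in the WT libraries. Every ACADSB-/- library was below every WT library, and the mean was 5312 ± 141 CPM in ACADSB-/- cells and 6082 ± 17.7 CPM in WT cells (SD, n = 3 each), a ratio of 0.873. As a share of all counts, with no scaling, the members held 0.535%, 0.548% and 0.530% in the ACADSB-/- libraries, against 0.604%, 0.607% and 0.593% in the WT libraries. By structural group the ratio of summed CPM ran from 0.734 for the catalytic beta subunits to 1.05 for the activators among the groups with tested genes.

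**Figure D3:**
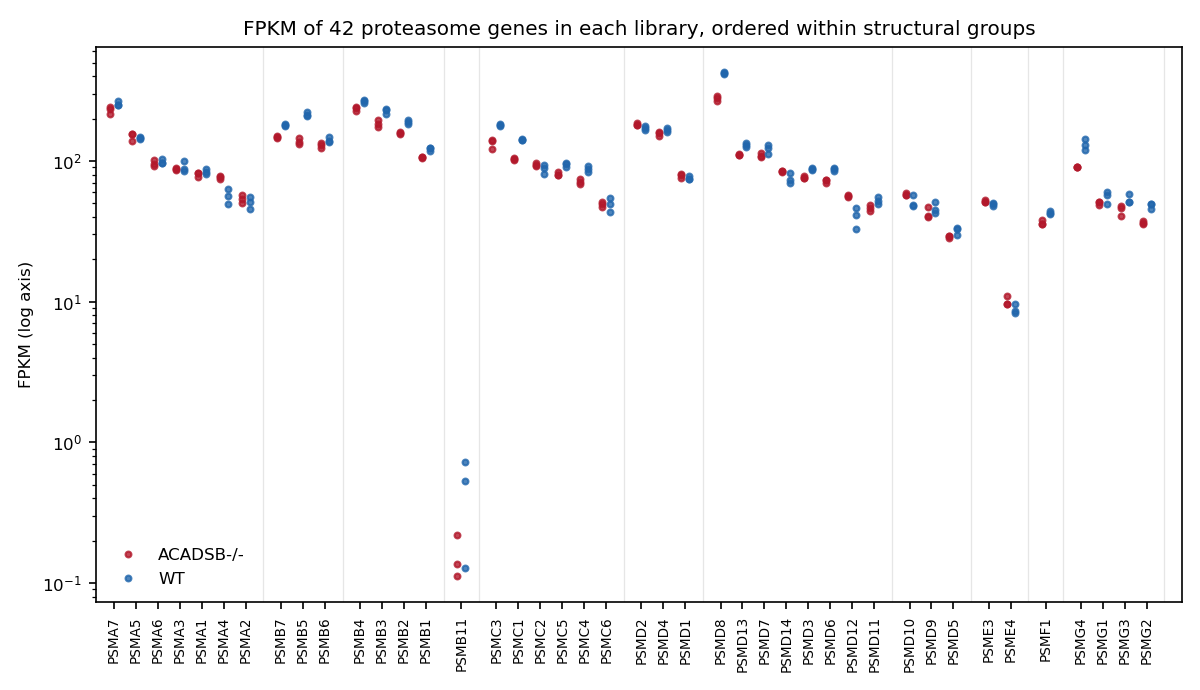
FPKM (log axis) of the 42 proteasome genes in each library (points, ACADSB-/- left of WT for each gene), ordered by level within structural groups. PSMB11 lies below 1 FPKM in every library, and all other members lie between 8.32 and 427 FPKM.

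The members were scattered over 19 chromosomes, and 14 of these carried at least 1 lower member. No like count was made for other genes, so that the 14 cannot be set against it. Chromosome 19 held 7 members, 5 of them lower and 1, PSMD12, higher, beside 29.0% lower and 24.6% higher of the 839 tested genes there. All 3 members on chromosome 18, PSMC4, PSMD7 and PSMD8, were lower, beside 37.3% of the 809 tested genes there. Chromosome 10 held 5 members, with PSMB5 and PSMC1 lower, PSMA3 and PSMC6 not past the test and PSMB11 not tested. On that chromosome 258 of 610 tested genes (42.3%) were lower and 129 (21.1%) higher, with a median log2 fold change of -0.16.

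Gene model length moved with the fold change over the whole table. The median log2 fold change of all tested genes was -0.12, -0.044, 0.057 and 0.13 from the shortest to the longest gene models, in 4 classes of about equal size. The members are mostly short genes, of 508 to 7067 bases, and 25 of the 41 were in the shortest class, 12 in the next, and 2 in each of the longer classes. Their medians in these classes were -0.20, -0.19, 0.033 and 0.098. With the length trend removed, the counts were the 17 lower and 4 higher members given above. PSMA7, PSMB1, PSMB4, PSMB6, PSMD4, PSMD7, PSMG1 and PSMG3 then no longer passed as lower, PSME4 no longer passed as higher, and PSMD10 passed as higher (0.28, adjusted p = 0.000976). PSMB5 (-0.62, adjusted p = 1.11e-12), PSMD8 (-0.56, adjusted p = 9.91e-13), PSMD12 (0.47, adjusted p = 0.000708) and PSMA4 (0.49, adjusted p = 1.43e-07) kept their calls. Whether the length trend is technical was not tested. No source used here tells if reads were counted by strand, so that genes overlapping a member, or near-identical copies of one, may share its reads.

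Over all settings tried other than the test for a change beyond 1.2-fold, 18 of the 29 called members kept their direction and their call. These were PSMA4 and PSMD12, which were higher, and PSMB2, PSMB3, PSMB5, PSMB7, PSMC1, PSMC3, PSMC4, PSMC5, PSMD3, PSMD6, PSMD8, PSMD11, PSMD13, PSMF1, PSMG2 and PSMG4, which were lower. The share of all called genes that held in this way was not counted, so that the 18 of 29 cannot be set against it. With library totals in place of scaling, PSMB6, PSMD4, PSMD5 and PSMG1 lost their calls (adjusted p = 0.0565, 0.124, 0.0583 and 0.0749). With limma on log2(FPKM + 1), these genes and PSME4 were lost (adjusted p of 0.0501 to 0.119). DESeq2 did not call PSMD14 (adjusted p = 0.0523) or PSME4 (adjusted p = 0.071).

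Of the 5 inducible subunits, which interferon brings into the core and its cap, 3 (60%, beside 28.6% of all tested genes) fell in ACADSB-/- cells and the other 2 were not called, with a median log2 fold change of -0.14. PSMB8, the inducible counterpart of PSMB5, had 39.5, 44.3 and 37.3 CPM in the ACADSB-/- libraries, against 52.9, 48.8 and 52.3 CPM in the WT libraries. It was lower with separate groups (log2 fold change -0.35, SE 0.072, adjusted p = 0.000147). Relative to PSMB5, PSMB8 stood at 26.9%, 28.0% and 26.8% of its FPKM in the ACADSB-/- libraries, against 21.8%, 21.5% and 22.2% in the WT libraries. PSMB10 relative to PSMB7 went the other way, at 0.669%, 0.533% and 0.891% in the ACADSB-/- libraries, against 1.28%, 0.979% and 1.25% in the WT libraries. PSMB9 relative to PSMB6 overlapped between groups, at 5.77%, 7.96% and 7.24% in the ACADSB-/- libraries, against 5.76%, 6.88% and 5.92% in the WT libraries. The differences in these ratios were not tested. PSMB9, the counterpart of PSMB6, had 5.72, 7.70 and 6.499 CPM in the ACADSB-/- libraries, against 6.399, 7.03 and 6.22 CPM in the WT libraries. Its groups overlapped and it did not pass the test (log2 fold change 0.017, SE 0.15, adjusted p = 0.929). PSMB10, the counterpart of PSMB7, was at a low level, with 0.963, 0.783 and 1.23 CPM in the ACADSB-/- libraries, against 2.25, 1.71 and 2.29 CPM in the WT libraries. Its groups did not overlap, and it was lower (log2 fold change -1.07, SE 0.29, adjusted p = 0.00264). Of the subunits of the inducible cap, PSME2 had 110, 113 and 109 CPM in the ACADSB-/- libraries, against 124, 124 and 119 CPM in the WT libraries, which was a decrease (log2 fold change -0.14, SE 0.052, adjusted p = 0.0178). PSME1 had 203, 214 and 193 CPM in the ACADSB-/- libraries, against 216, 210 and 218 CPM in the WT libraries, with overlapping groups (log2 fold change -0.075, SE 0.05, adjusted p = 0.199).

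Of 19 partners and receptors of the proteasome, with SHFM1, ADRM1, PAAF1 and POMP among them, 6 were higher, 6 lower and 7 did not pass. The share of 31.6% in each direction was near that of all tested genes (29.7% higher and 28.6% lower), with a median of 0.062. ZFAND5, a zinc finger protein that stimulates the proteasome, had 62.5, 60.5 and 55.8 CPM in the ACADSB-/- libraries, against 118, 131 and 129 CPM in the WT libraries. This was a decrease to below the level of every WT library (log2 fold change -1.08, SE 0.059, adjusted p = 1.02e-15). USP14, a deubiquitinase that docks on the cap, had 84.9, 85.3 and 86.7 CPM in the ACADSB-/- libraries, against 55.7, 62.0 and 61.0 CPM in the WT libraries, with all ACADSB-/- libraries above the WT libraries (log2 fold change 0.52, SE 0.06, adjusted p = 1.05e-08). Of 10 genes of the pathway that activates proteasome gene transcription, 4 were higher, 4 lower and 2 did not pass, so that 80% were called, beside 58.2% of all tested genes, with a median of 0.058. NGLY1, the deglycosylase that processes the transcription factor NFE2L1, had 31.4, 33.1 and 32.7 CPM in the ACADSB-/- libraries, against 22.5, 23.0 and 24.0 CPM in the WT libraries, an increase with separate groups (log2 fold change 0.48, SE 0.08, adjusted p = 6.04e-06). The small Maf protein MAFF, which dimerizes with such factors, had 49.7, 51.7 and 53.4 CPM in the ACADSB-/- libraries, against 69.0, 66.2 and 66.7 CPM in the WT libraries, a decrease with separate groups (log2 fold change -0.38, SE 0.062, adjusted p = 4.46e-06). NFE2L1 itself, named after its values were seen because it is the main activator of these genes when proteasome activity is limiting, had 561, 555 and 537 CPM in the ACADSB-/- libraries, against 441, 415 and 434 CPM in the WT libraries, and it was higher (log2 fold change 0.36, SE 0.046, adjusted p = 1.09e-07).

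Among 14 genes for ubiquitin and for its activating and conjugating enzymes, 5 were higher, 5 lower and 4 did not pass, which is 35.7% in each direction beside 29.7% and 28.6% of all tested genes, with a median of -0.0045. The ubiquitin-activating enzyme UBA6 had 68.3, 71.0 and 67.9 CPM in the ACADSB-/- libraries, against 23.9, 37.6 and 32.1 CPM in the WT libraries. It was higher in every ACADSB-/- library, with WT replicate 1 the lowest of all (log2 fold change 1.15, SE 0.13, adjusted p = 6.05e-05). The conjugating enzyme UBE2D3 had 299, 279 and 260 CPM in the ACADSB-/- libraries, against 140, 172 and 170 CPM in the WT libraries, again with separate groups (log2 fold change 0.80, SE 0.073, adjusted p = 2.18e-07). The COP9 signalosome, a complex built on the same plan as the lid, had 2 of 9 genes higher, 2 lower and 5 that did not pass, so that 44.4% were called, below the 58.2% of all tested genes, with a median of -0.0015. COPS6, its counterpart of PSMD7, had 166, 173 and 154 CPM in the ACADSB-/- libraries, against 233, 216 and 225 CPM in the WT libraries, a decrease with separate groups (log2 fold change -0.45, SE 0.052, adjusted p = 1.49e-08). GPS1 was lower as well, at 85.3, 87.1 and 81.0 CPM in the ACADSB-/- libraries, against 95.7, 92.7 and 105 CPM in the WT libraries (log2 fold change -0.21, SE 0.059, adjusted p = 0.00248). The chaperonin CCT, another ring of distinct subunits, had 4 of 8 genes lower (50%, beside 28.6% of all tested genes) and 4 that did not pass, with a median of -0.098. CCT5 had 304, 319 and 286 CPM in the ACADSB-/- libraries, against 384, 392 and 402 CPM in the WT libraries, and its groups were separate (log2 fold change -0.37, SE 0.049, adjusted p = 1.22e-07). CCT7 had 222, 228 and 210 CPM in the ACADSB-/- libraries, against 292, 279 and 280 CPM in the WT libraries, also with separate groups (log2 fold change -0.37, SE 0.049, adjusted p = 1.67e-07). Differences between these lists and the proteasome genes were not tested.

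**Figure D4:**
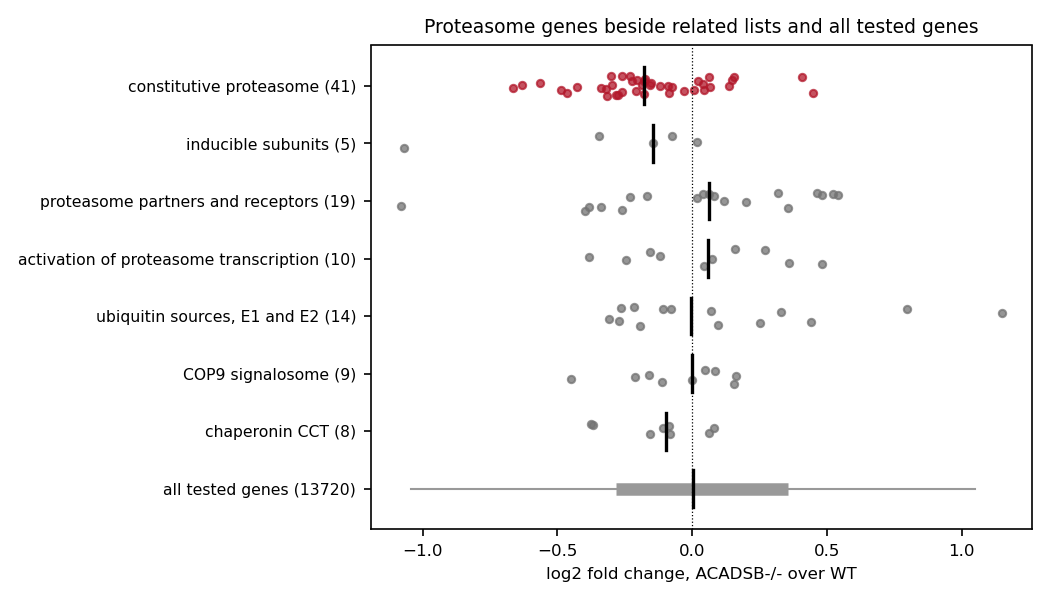
Log2 fold change of ACADSB-/- over WT for each tested gene of the proteasome and of 6 related lists (points, with the number of genes in brackets and the median as a black line). For all 13720 tested genes the thick bar spans the middle 50% of genes, from -0.28 to 0.35, and the thin line the 5th to the 95th percentile, from -1.04 to 1.05.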

How the data were processed

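RNA-seq libraries of ACADSB-/- and WT bMECs were compared, with 3 libraries in each group, named by their labels. The deposited table holds raw read counts per gene, and a deposited table of FPKM holds the authors' values per gene length and library total, beside gene model lengths. The authors' own comparison columns (fold change, log2 fold change, p-value and FDR) and 3 columns that matched no sample of the series were not used. Bismark 0.12.5 is listed in the processing notes of the submitters, without a role. For the aligner, counting tool, strand setting and genome build, the sources used here give nothing. The members and all gene lists were chosen with earlier results of these data known.

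Counts were tested with the quasi-likelihood test of edgeR 4.0.16 (R 4.3.3, limma 3.58.1), in place of the EB-Seq algorithm named by the study. The filterByExpr function removed low genes (count of at least 10, total of at least 15), libraries were scaled by TMM, the condition was the only term, and Benjamini-Hochberg adjustment ran over 13720 genes. CPM used TMM-scaled totals. The biological coefficient of variation, the name edgeR gives to the scatter among libraries of a group, was 6.64%. The steps were also run on simulated counts. These held a small set of changed genes, as many up as down, and no length trend. The run therefore does not show whether the scaling or the length trend affected the member calls. The libraries of a group differed by more than sampling noise (chi-square per degree of freedom 3.9 to 9.58), and each was counted as its own sample. Separate preparations of the same culture could differ in this way too, so that this does not show that the libraries were independent. Alternatives were other scalings (RLE, upper quartile, library totals), DESeq2 1.42.0, other filters, limma on log2(FPKM + 1) and log2(FPKM + 0.1), a replicate block and leaving out each library. A length correction and a test beyond 1.2-fold were added after seeing the data. Values per library are given for the 10 members with the largest absolute log2 fold change among those called with groups not overlapping in CPM, the catalytic subunits, members left out by the filter, the inducible subunits, and the 2 largest called changes of each other list. Plots were made in Python 3.11.15 with matplotlib 3.10.9.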

Additional observations from a re-analysis of the deposited data

How the results depend on the processing

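The direction of the member median stayed negative under every alternative, at -0.212 to -0.152 when each library was left out in turn and at -0.0926 with the length trend removed, where 4 members were higher and 17 lower. When each library was left out, 2 to 5 members were higher, with the lowest count without WT replicate 1 and without WT replicate 3, and 21 to 26 were lower. Of all tested genes, 52.0% to 57.7% were called in these runs, in either direction. DESeq2 called 2 members higher and 25 lower. Of all genes it called 3909 higher and 3920 lower (49.9% in either direction). The test for a change beyond 1.2-fold called 2 members higher and 6 lower, and 4526 of all tested genes, in place of 7990. PSME4 turned to -0.0175 with the length trend removed, and the cause was not tested. The replicate numbers did not pair the samples (correlations of same-numbered libraries -0.0402, -0.0256 and -0.0236), and the replicate block gave 4 members higher and 24 lower, with 7806 of all tested genes called. PSMD4 lost its call there (adjusted p = 0.0653). The alternatives not yet named gave 3 to 5 members higher and 21 to 25 lower, with 52.1% to 63% of all genes called. With 3 libraries in each group, small changes such as those of PSMD4, PSMD14 and PSME4 depended on single libraries.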
